A study of Mus musculus with 24 samples.

Results

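RNA levels of mouse neural progenitor cells (NPCs) were set against those of the embryonic stem cells (ESCs) they came from, over every gene symbol present in the RPKM table of each cell type. Of 21909 symbols, the 8137 with a mean above 1 RPKM in ESCs or in NPCs were tested. Where only the NPC mean was above it, the filter itself set the direction as a rise. Where only the ESC mean was above it, the filter set a fall. The pluripotency genes, several genes of amino acid and one-carbon metabolism, and genes of ribosome production fell in NPCs. Hox genes, imprinted genes, retinoic acid genes, extracellular matrix genes and hypoxia-response genes rose. Neural progenitor markers rose for the most part, and markers of mesoderm and mesenchyme rose beside them.

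The study mapped contacts of the genome with the nucleolus in ESCs and NPCs, and its RNA-seq covers the same cell types. Only the 6 RNA-seq samples, 3 per cell type, were used here. Other data of the study were not analysed here. Pou5f1, Nanog and Klf factors hold mouse ESCs in their undifferentiated state, and medium with LIF and inhibitors of GSK3 and MEK supports that state. Retinoic acid given to embryoid bodies induces Hox genes and neural genes, and it also acts on mesoderm. Pax6 and Nes mark radial glia and other neural progenitors.

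All cells were of the E14 line. ESCs grew without feeder cells on gelatin in medium with LIF at 1000 U/ml, CHIR99021 at 3 µM and PD0325901 at 1 µM. NPCs were derived in vitro through embryoid bodies in suspension over 8 days, with 2 µM retinoic acid in the last 4 days, and the labels call them Pax6-positive radial glia. RNA came from 3 replicates per cell type and was enriched for polyadenylated RNA. Values of ESCs and NPCs come from 2 separately deposited tables, no shared batch is named, and batch, medium and cell type cannot be told apart. Each sample was scaled to its own reads alone. The length step was the same in both tables, and it followed the whole gene span with introns, so that genes with long introns read low on this scale. Differences are given as NPC minus ESC on the log2(RPKM + 1) scale, which understates fold changes of genes with low levels.

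ESC replicate 3 stood apart from the other ESC samples. The correlation of its log2(RPKM + 1) values with ESC replicates 1 and 2 was 0.963 and 0.966, while replicates 1 and 2 correlated at 0.9985 and the NPC samples at 0.996 to 0.9985. ESC and NPC samples correlated at 0.685 to 0.712. In ESC replicate 3 genes with short exonic sequence read high and genes with long exonic sequence read low. In the quartile of tested genes with the shortest exons its values lay 0.396 above the mean of replicates 1 and 2 at the median, and in the longest quartile 0.340 below. Ribosomal protein genes held 32.1% of its summed RPKM against 20.1% and 20.9% in ESC replicates 1 and 2 and 16.6%, 17% and 17.3% in NPCs. Mitochondrial genome genes held 6.34% of it against 15.3% and 14.2% in the other ESC samples and 13.1%, 12.6% and 11.8% in NPCs. Results below use all 6 samples, and values without ESC replicate 3 are given for many of the lists that moved without it.

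**Figure D1:**
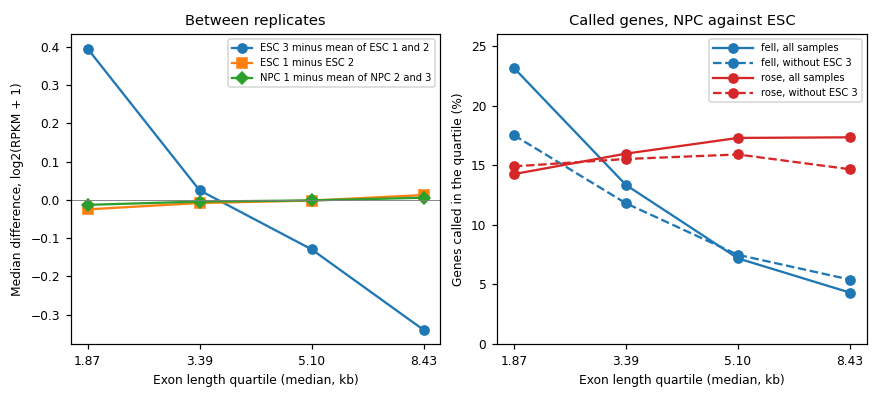
Differences between replicates (left) and share of tested genes called in each direction (right) in quartiles of exon length. ESC replicate 3 lay above its fellow replicates for short genes and below them for long genes, and leaving it out lowered the share of short genes called as falling from 23.2% to 17.5%.

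By limma with an adjusted p under 0.05, 5738 of the 8137 tested genes passed (70.5%), of which 3001 rose in NPCs (36.9%) and 2737 fell (33.6%). Genes that passed and also differed by at least 1 are named called below, and they numbered 2298 (28.2%), with 1322 that rose (16.2%) and 976 that fell (12%). Levels of the groups did not overlap in 6525 tested genes (80.2%). A difference of at least 2 was reached by 380 genes that rose and 211 that fell, one of at least 4 by 45 and 39, and one of at least 6 by 4 and 8. Without ESC replicate 3, 3552 genes rose and 3649 fell, which turned the balance, and the called genes were 1244 that rose and 865 that fell, of which 1215 and 778 were also called with it. The split between rises and falls depended on scaling, and counts by list under equal-sum scaling are given below for some of the lists that moved. Scaling to an equal sum of RPKM gave 1845 called rises and 540 called falls, and median-ratio scaling 1567 and 717. Quantile normalization gave 1077 and 986 called genes from 2771 genes that rose and 3090 that fell. Those scalings moved the median difference of all genes from 0.015 to 0.353 and 0.187, and quantile normalization moved it to −0.057. A list median that turned under a scaling is to be read beside that shift of all genes.

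**Figure D2:**
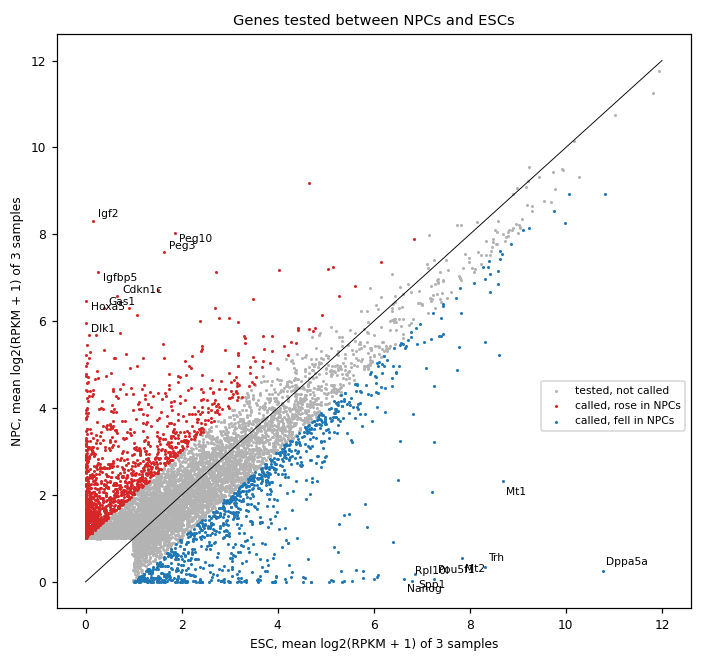
Mean levels of the 8137 tested genes in ESCs and NPCs, with called genes in colour and the 8 largest rises and falls named.

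The largest rise was that of Igf2, an imprinted growth factor gene. It stood at 0.112, 0.181 and 0.0749 RPKM in ESC replicates 1 to 3 and at 326, 318 and 311 RPKM in NPC replicates 1 to 3. The limma difference was 8.15 (SE 0.09, adjusted p = 1.58e-07), with all NPC samples above all ESC samples. Igfbp5, which codes for a binding protein of the same growth factors, followed with 0.211, 0.278 and 0.109 RPKM in ESCs and 144, 142 and 133 RPKM in NPCs. Hoxa5 rose from at most 0.0207 RPKM in ESCs to 93.1, 85.6 and 83.7 RPKM. Then came imprinted genes again, with Peg10 at 3.63, 3.30 and 1.39 against 261, 261 and 260 RPKM, Dlk1 at 0, 0.0395 and 0 against 52.8, 66.0 and 67.5 RPKM, and Peg3 at 2.95, 2.87 and 0.972 against 197, 192 and 186 RPKM. No ESC sample reached the level of any NPC sample in these genes. Gas1, a hedgehog coreceptor gene, and Cdkn1c, an imprinted inhibitor of the cell cycle, each rose by 5.92. The other rises among the 20 largest belonged to Hoxa4, Hoxb4 and Hoxb5, Igfbp4, the matrix genes Ecm1 and Adamts1, the retinoic acid hydroxylase gene Cyp26b1, Nnat, Nr2f2, Id2, Sox11 and Myrf, each by 4.97 to 5.62. Myrf, a transcription factor gene known from myelinating glia, read 0.0253, 0.0347 and 0.0270 RPKM in ESCs and 30.3, 33.5 and 32.4 RPKM in NPCs.

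The largest fall was that of Dppa5a, which codes for an RNA-binding protein of pluripotent cells. Its level was 1307, 1294 and 3131 RPKM in ESC replicates 1 to 3 and 0.354, 0.130 and 0.110 RPKM in NPC replicates 1 to 3. In limma the difference was −10.51 (SE 0.36, adjusted p = 9.47e-07), or −10.09 without ESC replicate 3. Trh, the gene of thyrotropin-releasing hormone, fell from 313, 334 and 308 RPKM to 0.410, 0.255 and 0.167 RPKM. Metallothionein genes were also among the largest falls. Mt2, next after Trh, read 163, 179 and 397 RPKM in ESCs and 0.587, 0.609 and 0.206 RPKM in NPCs, and Mt1 303, 335 and 693 RPKM against 4.00, 4.36 and 3.71 RPKM. ESC replicate 3 was the highest sample for Dppa5a, Mt1 and Mt2, yet every ESC sample lay far above every NPC sample. Pou5f1 fell by 7.19 and Nanog by 6.56. Among the 20 largest falls were also Spp1, the Nodal coreceptor gene Tdgf1, the Nodal antagonist gene Lefty2, Gdf3, Klf2, Utf1, Zfp42, the threonine dehydrogenase gene Tdh, Gpx2, Gtsf1l, Trap1a, the small heat shock gene Hspb1, and the copies Rpl10l and Rbmxl2, which are known for expression in male germ cells.

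On and off patterns were common. Among genes called in NPCs, 406 had an ESC mean under 0.1 RPKM, and the most abundant of them were Hoxa5, Dlk1, Hoxa4, Cyp26b1, Hoxb4, Adamts1, Nr2f2, Myrf, Hoxb5 and Foxf1. Nr2f2, a nuclear receptor gene induced by retinoic acid, read at most 0.0722 RPKM in ESCs and 35.6, 35.2 and 32.8 RPKM in NPCs. In the opposite direction, 163 called genes had an NPC mean under 0.1 RPKM, headed by Pou5f1, Rpl10l, Nanog, Tdgf1, Gtsf1l, Trap1a, Tdh, Zfp42, Gdf3 and Rbmxl2. Rpl10l stood at 93.7, 91.4 and 158 RPKM in ESCs, at 0.0649 RPKM in NPC replicate 1, and was listed at 0 in NPC replicates 2 and 3. Tdh, whose enzyme feeds threonine into glycine and acetyl-CoA in mouse ESCs, read 41.3, 42.9 and 53.8 RPKM in ESCs and 0.0257, 0 and 0.0185 RPKM in NPCs.

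More symbols were above 1 RPKM in NPCs (7332, 7338 and 7315 in replicates 1 to 3) than in ESCs (6581, 6562 and 6079), and fewer were listed at 0 (5039, 5130 and 5122 against 6053, 5947 and 6291). At higher levels the order turned. Above 10 RPKM were 1249, 1268 and 1277 symbols in NPCs and 1377, 1398 and 1559 in ESCs. Above 100 RPKM were 117, 119 and 118 in NPCs and 145, 144 and 206 in ESCs. The 10 most abundant genes held 15.5%, 15.0% and 14.3% of the summed RPKM in NPCs and 18.7%, 18.0% and 15.7% in ESCs. On the deposited scale per kb of gene span, mt-Co1, mt-Nd1 and mt-Cytb led in each cell type, and mt-Nd2, Hsp90ab1 and Rpl41 were shared as well. mt-Co1 read 4891, 4748 and 2591 RPKM in ESCs and 3529, 3423 and 3432 RPKM in NPCs, a difference of −0.18 that did not pass (limma adjusted p = 0.619). Dppa5a, Rplp1, Rpl8 and Rps12 were among the 10 in ESCs only, and mt-Nd5, mt-Nd6, Eef1a1 and Eef2 in NPCs only. Ribosomal protein genes held a larger share of ESC replicate 3 than of the other ESC samples, and ranks without it were not tested. Rplp1 fell by 1.88 (1.45 without ESC replicate 3). Among the 100 most abundant genes, the steadiest were Srsf1, Tubb5, Mif, mt-Nd2 and mt-Nd4, with differences between −0.07 and 0.08, although Srsf1, Tubb5 and Mif rose by 0.58, 0.68 and 0.70 under quantile normalization. Without ESC replicate 3, mt-Nd2 and mt-Nd4 fell, as did all 7 tested genes of the mitochondrial genome. Tubb5, a main tubulin gene, read 465, 499 and 547 RPKM in ESCs and 542, 515 and 536 RPKM in NPCs.

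Pluripotency factors gave the plainest group result. All 28 tested factors of 30 listed fell, 27 of them called, with a median difference of −3.90 beside 0.01 for all tested genes, of which 36.9% rose and 33.6% fell. In that list 29, 29 and 28 genes were above 1 RPKM in ESC replicates 1 to 3 and 7 in each NPC sample, so the filter favoured falls. Summed over the list, levels were 2230, 2240 and 4174 RPKM in ESC replicates 1 to 3 and 25.3, 27.0 and 28.1 RPKM in NPC replicates 1 to 3, with Dppa5a the most abundant by mean in ESCs and Sox2 in NPCs. Pou5f1 read 130, 136 and 202 RPKM in ESCs and 0.0558, 0.0386 and 0.0651 RPKM in NPCs (limma difference −7.19, SE 0.18, adjusted p = 3.2e-07). Nanog read 101, 98.9 and 94.8 RPKM against 0.0696, 0.0667 and 0.0260 RPKM. Zfp42, a marker of the naive state, read 39.3, 39.1 and 44.3 RPKM in ESCs and at most 0.0195 RPKM in NPCs. The smallest fall in the list was that of Tbx3, at 14.8, 15.4 and 9.32 RPKM in ESCs and 7.12, 7.27 and 6.62 RPKM in NPCs, a difference of −0.79 that passed but was not called with all samples. Sox2, shared by pluripotent and neural progenitor cells, fell from 157, 154 and 142 RPKM to 6.82, 8.56 and 9.91 RPKM (limma difference −4.02, SE 0.15, adjusted p = 1.31e-06). Sox2 had the highest mean of the list in NPCs on the span scale, although Tbx3 lay above it in NPC replicate 1.

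Factors tied to the naive state fell along with them. Of 13 tested LIF and STAT3 genes of 16, 9 fell and 3 rose, with Tfcp2l1, Klf4 and Socs3 falling most and a median of −0.89. Tfcp2l1 read 23, 22.9 and 8.92 RPKM in ESCs and at most 0.0522 RPKM in NPCs. Among 11 tested KLF factors of 17, 7 fell and 1 rose (median −1.30). Klf2 fell from 69.9, 76.6 and 107 RPKM to 0.999, 0.811 and 0.909 RPKM, and Klf4 and Klf5 by 3.91 and 2.48. Formative and primed epiblast genes were mixed, with 9 falls and 5 rises among 14 tested of 18 (median −0.82). With a mean over 5 RPKM in either cell type as filter, 4 rose and 2 fell, and the median turned to 2.61. Summed levels were 37.0, 38.7 and 29.5 RPKM in ESCs and 49.4, 52.6 and 55.8 RPKM in NPCs. That direction turned per kb of exon (204, 212 and 142 in ESCs and 128, 126 and 129 in NPCs). Foxd3 and Etv5 fell, while Sox4, Sox3 and Sall2, which also work in neural cells, rose. Fgf5, a defining gene of primed epiblast, was below the filter, with at most 0.00519 RPKM in ESCs and 0.282, 0.308 and 0.328 RPKM in NPCs. Of 4 tested Zic factors of 5, 3 fell, Zic2 by 1.23, and Zic1 rose from 0 in all ESC samples to 1.07, 1.44 and 1.81 RPKM (list median −1.01). Only 3 of 31 genes of 2-cell-like and germline cells were tested, namely Rpl10l, Tex19.1 and Dazl, and all fell (median −4.70). Of the 31, 29 were among the deposited symbols. None was above 1 RPKM in any NPC sample, so the filter set that direction. Their list summed to 123, 122 and 190 RPKM in ESCs and 1.1, 1.0 and 1.0 RPKM in NPCs, Rpl10l was its leading gene in ESCs and Tdrkh in NPCs, and Gm4340 and Rhox4b were listed at 0 in all samples.

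Markers of neural progenitors and radial glia rose in 14 of 19 tested genes of 28 listed, 13 of them called, and fell in 2, with a median of 1.33. Pax6 read 0.0134, 0.0167 and 0.00457 RPKM in ESC replicates 1 to 3 and 1.55, 1.42 and 1.67 RPKM in NPC replicates 1 to 3. Its limma difference was 1.33 (SE 0.05, adjusted p = 9.56e-07), and no samples overlapped. Nes, the gene of the intermediate filament nestin, rose from 3.79, 3.25 and 3.33 RPKM to 29.8, 32.7 and 29.4 RPKM. Sox9, Pou3f2 and Sox3 had the largest rises of the list, with Sox9 at no more than 0.0293 RPKM in ESCs and at 9.92, 10.8 and 10.5 RPKM in NPCs. Hes5, a Notch target of neural progenitors, was listed at 0 in all ESC samples and at 2.50, 3.57 and 3.51 RPKM in NPCs. Vim was the most abundant member in NPCs but did not pass, with 35.3, 37.4 and 45.9 RPKM in ESCs and 44.0, 44.0 and 48.8 RPKM in NPCs (difference 0.21, limma adjusted p = 0.205), and Hes1 and Notch1 did not pass either (−0.06 and 0.44). Because Sox2 alone gave most of the ESC signal, the list summed to 215, 214 and 212 RPKM in ESCs and 147, 159 and 167 RPKM in NPCs. Slc1a3, Prom1, Cdh2, Gli3 and Dach1 were below the filter on the span scale, although each had higher values in all NPC samples.

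Neuronal genes were at a lower level. Of 37 genes of neurogenesis and neurons, 14 were tested, 12 rose and 2 fell (median 1.36). With a mean over 1 RPKM in both cell types as filter, 1 rose and 1 fell, and that median turned to −0.18. The list summed to 18.3, 19.5 and 20.8 RPKM in ESCs and 50.1, 47.0 and 55.1 RPKM in NPCs. The proneural genes led. Neurog1 rose from 0.0523, 0.0352 and 0.116 RPKM to 4.23, 4.70 and 6.30 RPKM, and Neurog2 from 0 in all ESC samples to 2.96, 2.75 and 3.29 RPKM. Lhx1, a LIM factor gene of interneurons, was the most abundant member in NPCs at 6.01, 5.99 and 7.07 RPKM. Tubb3, the most abundant in ESCs, fell from 6.42, 7.57 and 7.86 RPKM to 4.47, 3.56 and 4.41 RPKM, and Stmn2 fell by 2.25. Among 59 neural patterning transcription factors 27 were tested, with 21 rises, all called, and 6 falls, 4 of them called (median 1.33). Nr2f2, Nr2f1 and Msx3 rose most, Nkx6-2, Otx2 and Zic2 fell most, and Pbx2 was the most abundant in NPCs at 42.5, 44.9 and 45.4 RPKM. Otx2, which marks forebrain and midbrain, fell from 1.75, 1.54 and 1.15 RPKM to at most 0.0249 RPKM. Of 10 oligodendrocyte and astrocyte genes only Cnp was tested, and it fell by 0.31, from 1.13, 1.21 and 1.25 RPKM to 0.883, 0.737 and 0.696 RPKM. That list summed to 2.3, 2.2 and 2.3 RPKM in ESCs and 2.05, 1.95 and 1.78 RPKM in NPCs.

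**Figure D3:**
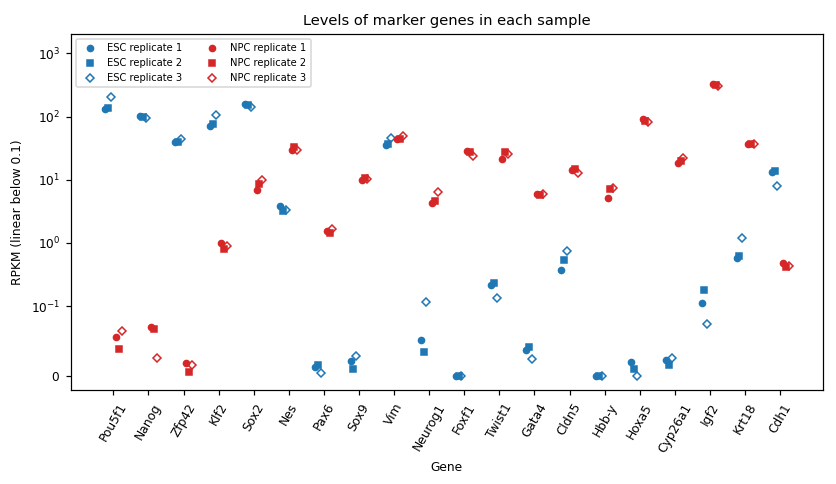
Levels of 20 marker genes in each of the 6 samples, in RPKM per kb of gene span. Pluripotency genes and Cdh1 were low in all NPC samples, while mesodermal, endothelial and blood genes and neural genes other than Sox2, Nes and Vim were low or listed at 0 in all ESC samples.

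Mesoderm and mesenchyme markers rose in the same samples. All 18 tested genes of 37 listed rose, 17 of them called, with a median of 2.21, and their sum went from 4.2, 4.5 and 3.9 RPKM in ESCs to 142, 158 and 150 RPKM in NPCs. In that list 0, 2 and 0 genes were above 1 RPKM in ESC replicates 1 to 3 and 17, 18 and 18 in NPC replicates 1 to 3. Most thus entered the test through NPCs, so the filter set their direction. Foxf1 was listed at 0 in every ESC sample and at 29.1, 27.3 and 23.8 RPKM in NPCs, where it led the list. Twist1 rose from 0.218, 0.234 and 0.135 RPKM to 21.7, 27.2 and 26 RPKM, and Foxc2 from at most 0.0544 RPKM to 21.4, 29.3 and 26.4 RPKM. Tcf21 and Wt1, which mark mesothelium and the progenitors of kidney and heart coverings, were at 13.0 to 14.7 and at 7.62 to 8.19 RPKM in NPCs. T, the gene of the primitive streak factor Brachyury, ran the other way, from near 1 RPKM in ESCs to near 0 in all NPC samples, and was below the filter, and Msgn1 was listed at 0 throughout. For the heart and muscle list of 17 genes, the 3 tested, Gata5, Des and Myl7, rose (median 1.89) and the sum went from 3.2, 3.3 and 5.1 to 15.6, 23 and 24.3 RPKM, with Myl7 the most abundant gene in each cell type. Gata5 was listed at 0 in all ESC samples and stood at 3.17, 3.17 and 3.00 RPKM in NPCs.

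In the endoderm list 11 of 15 tested genes of 28 rose and 4 fell (median 1.22), and Gata6, Gata4 and Col4a1 rose most. Gata4 read at most 0.0424 RPKM in ESCs and 5.85, 5.83 and 6.02 RPKM in NPCs. On the span scale the endoderm sum fell from 200, 213 and 347 to 77.2, 88.6 and 90.1 RPKM, because Apoe, at 168, 182 and 308 RPKM in ESCs and 21.3, 30.9 and 34.5 RPKM in NPCs, made up most of it, and Cer1 was listed at 0 in all samples. Per kb of exon that sum was 448, 465 and 670 in ESCs and 509, 521 and 524 in NPCs, so NPCs were above ESC replicates 1 and 2 and below ESC replicate 3. Endothelial genes rose in 10 of 11 tested of 16, all called, and fell in 1 (median 1.49), and their sum went from 3.3, 3.4 and 4.6 to 40.3, 42.9 and 39.4 RPKM. Cldn5, a tight junction gene of vessels, rose from 0.374, 0.545 and 0.759 RPKM to 14.2, 14.8 and 13.0 RPKM, above Sox18 and Tie1, while Egfl7 led in ESCs. Embryonic globin genes appeared too. Hbb-y, Hba-x and Hbb-bh1 were listed at 0 in all ESC samples, and in NPC replicates 1 to 3 Hbb-y read 5.11, 7.25 and 7.30 RPKM, Hba-x 4.17, 6.01 and 6.71 RPKM and Hbb-bh1 3.74, 5.62 and 7.28 RPKM. The blood and macrophage list had 5 tested genes of 19, with 4 rises and 1 fall (median 2.67), the fall being that of Cd68, and it summed to 8.1, 9.0 and 8.2 RPKM in ESCs and 17.3, 24.9 and 27.5 RPKM in NPCs.

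Neural crest genes split into 5 rises and 4 falls among 9 tested of 23 (median 1.08), or 5 and 2 under equal-sum scaling, with summed levels of 20.2, 21.2 and 15.0 RPKM in ESCs and 26.4, 27.8 and 27.9 RPKM in NPCs. Per kb of exon the sums were 64.6, 67.5 and 42.4 in ESCs and 68.0, 67.2 and 68.5 in NPCs, so NPCs lay above ESC replicate 3 and near replicates 1 and 2. Sox9, Msx1 and Snai2 rose, and Tfap2c and Foxd3 fell. On the span scale Foxd3 was the leading gene of that list in ESCs and Sox9 in NPCs, and per kb of exon Ngfr and Ets1. Epithelial genes were also split, with 6 rises and 7 falls among 16 tested of 27, and their median of −0.14 turned to 0.46 under scaling to an equal sum and to 0.27 under median-ratio scaling. That median also turned without ESC replicate 2 (0.04), per kb of exon (0.14) and without a filter. Cdh1, the main adhesion gene of epithelia and ESCs, fell from 13.3, 13.9 and 7.93 RPKM to 0.477, 0.423 and 0.428 RPKM, and Spint1 and Cldn4 fell as well. Krt18 moved the other way, from 0.586, 0.630 and 1.19 RPKM to 36.7, 36.9 and 36.8 RPKM, with Krt19 and Krt8 behind it. On the span scale the epithelial sum stood at 105, 114 and 123 RPKM in ESCs and 112, 117 and 116 RPKM in NPCs, led by Cldn4 and then by Krt18, and per kb of exon it fell from 371, 393 and 338 to 303, 316 and 310, led by Cdh1 and then by Krt18. Among all 50 keratin genes 8 were tested, 6 rose and 2 fell, Krt42 and Krt17 (median 1.32), and without ESC replicate 3 only 1 fall was called. Of 12 trophoblast genes 2 were tested, Gata2 with a rise of 1.22 and Tfap2c with a fall of 2.52 (median −0.65). That list summed to 8.5, 8.8 and 6.2 RPKM in ESCs and 3.21, 3.28 and 3.15 RPKM in NPCs, and Prl3d1 was listed at 0 in all samples. The NPCs thus carried the markers their label names together with markers of other lineages, in all 3 samples, and which cells held them was not tested. In bulk RNA a lower or higher marker level cannot be told apart from fewer or more cells that carry it.

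Genes of the retinoic acid pathway rose wherever they were tested on the deposited scale. All 21 tested genes of 30 listed passed upward, 16 of them called (median 1.36). In that list 3, 4 and 5 genes were above 1 RPKM in ESC replicates 1 to 3 and 21, 21 and 20 in NPC replicates 1 to 3, so the filter favoured rises. Cyp26b1, whose enzyme degrades retinoic acid, read 0.0196, 0.0343 and 0.00722 RPKM in ESCs and 44.4, 42.4 and 41.0 RPKM in NPCs, and Cyp26a1 0.0237, 0.0159 and 0.0262 RPKM against 18.5, 19.8 and 22.0 RPKM. Crabp2, a carrier of retinoic acid to its receptors, rose from 0.368, 0.365 and 0.628 RPKM to 25.4, 26.6 and 29.9 RPKM. Dhrs3 rose by 3.01, and the receptor genes Rara and Rarg by 0.60 and 1.03. Crabp2, Dhrs3, Rara and Rarg lie outside the rule for naming genes and were chosen after the values were seen. Hox genes, the classic targets, rose in 22 of 24 tested of 39, 21 of them called (median 2.33). Hoxa4 read at most 0.114 RPKM in ESCs and 54.0, 49.1 and 48.3 RPKM in NPCs, and Hoxb4 at most 0.0964 RPKM against 36.4, 38.7 and 39.1 RPKM. The highest NPC levels thus lay in paralogue groups 4 and 5, which pattern hindbrain and upper spinal cord. Hoxc12 and Hoxc13, at the far end of their cluster, fell from 0.632 to 2.27 RPKM in ESCs to at most 0.0358 RPKM in NPCs.

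Promoters of the retinoic acid list were searched for a direct repeat of the receptor's hexamer (AGGTCA or GGGTCA or AGTTCA or GGTTCA) with 5 bases between the copies, from 250 bases before to 50 bases after the start in the reference genome. The motif was rare, in 32 of 32851 promoters. Of 30 retinoic acid genes 21 had a promoter in that set and 2 held the motif, Rarb and Cyp26a1. Across the 6382 tested genes with such a promoter only 3 held it, Blvrb, Cyp26a1 and Hbb-y, of which 2 were called as rising. Rarb, which lies outside the rule for naming genes and was chosen after the values were seen, was below the filter, with 0, 7.63e-05 and 0 RPKM in ESCs and 0.233, 0.223 and 0.247 RPKM in NPCs. Its promoter spans chr14:16575427-16575726 on the minus strand of GRCm38.p6, with the repeat at bases 198 to 214. The Cyp26a1 promoter spans chr19:37697558-37697857 on the plus strand, with the repeat on the opposite strand at bases 219 to 235. Capitals show the hexamers, and their part in the result was not tested.

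Rarb promoter: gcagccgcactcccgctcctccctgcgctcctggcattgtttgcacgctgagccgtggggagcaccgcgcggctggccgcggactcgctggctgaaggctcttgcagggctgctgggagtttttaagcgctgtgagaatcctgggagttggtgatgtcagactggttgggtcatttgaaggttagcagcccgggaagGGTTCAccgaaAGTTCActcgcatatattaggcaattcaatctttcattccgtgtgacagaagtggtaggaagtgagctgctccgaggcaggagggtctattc

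Cyp26a1 promoter: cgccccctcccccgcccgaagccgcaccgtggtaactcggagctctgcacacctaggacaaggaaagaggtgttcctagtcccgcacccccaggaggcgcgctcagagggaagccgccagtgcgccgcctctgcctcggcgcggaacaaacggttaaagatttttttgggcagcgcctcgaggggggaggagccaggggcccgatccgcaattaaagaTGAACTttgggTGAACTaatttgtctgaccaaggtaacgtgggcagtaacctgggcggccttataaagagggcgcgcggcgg

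In the FGF and ERK list 14 of 23 tested genes of 35 rose and 7 fell (median 1.02), with Fos, Phlda1 and Spry1 up and Fgf4, Etv5 and Fgf17 down. Fgf4, made by ESCs themselves, fell from 14.3, 14.1 and 14.3 RPKM to at most 0.00371 RPKM. Spry1, a feedback inhibitor induced by ERK, rose from 1.53, 1.63 and 1.4 RPKM to 19, 20.1 and 20.3 RPKM. Immediate early genes showed 12 rises and 5 falls among 19 tested of 24 (median 1.16). Jun read 1.36, 1.44 and 1.09 RPKM in ESCs and 31.9, 36.4 and 35.4 RPKM in NPCs, and Ier5 and Fos followed. Klf2 and Nr4a1 fell, and Ier2, the most abundant in ESCs, did not pass at −0.67.

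WNT genes numbered 29 tested of 56, with 20 rises and 5 falls, 8 without ESC replicate 3 (median 1.21). The receptor genes led, with Fzd4 at 0.629, 0.648 and 0.329 RPKM in ESCs and 33.7, 34.6 and 35.3 RPKM in NPCs and with Fzd1 and Fzd2 next. Fzd7 was the most abundant receptor in NPCs at 68.0, 65.4 and 64.4 RPKM. Notum, Sp5 and Fzd5 fell, and Notum and Sp5 are targets of WNT signals. Notch genes rose in 17 of 21 tested of 30 and fell in 1, Rfng (median 1.05), and Dlk1, Hey1 and Notch3 rose most. Hey1, a target of Notch, went from 0.445, 0.464 and 0.609 RPKM to 31.3, 36.3 and 36.2 RPKM. All 10 tested hedgehog genes of 20 rose, 7 of them called or 4 under quantile normalization (median 1.17), among them Gas1, Gli1 and Smo. Most entered the test through NPCs, with 2, 3 and 0 of that list above 1 RPKM in ESC replicates 1 to 3. Gli1, a readout of hedgehog activity, read 0.665, 0.642 and 0.269 RPKM in ESCs and 14.0, 15.7 and 14.5 RPKM in NPCs. BMP and TGF-beta genes split into 21 rises and 8 falls among 30 tested of 51 (median 1.02). Id1, Id2 and Id3, targets of BMP signals, rose by 3.64, 5.07 and 4.41, while the Nodal genes Tdgf1, Lefty2 and Gdf3 fell.

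Extracellular matrix and adhesion genes rose in 35 of 47 tested of 73, 32 of them called, and fell in 3 (median 1.25). Without ESC replicate 3 there were 9 falls, 6 of them called in place of 2. Igfbp4 rose from 0.145, 0.149 and 0.183 RPKM to 48.7, 51.9 and 50.9 RPKM, and Mdk, the gene of the growth factor midkine, from 18.5, 19.4 and 38.8 RPKM to 507, 617 and 613 RPKM. Mdk was the most abundant member in NPCs. Timp1 and Sdc4 fell. All 12 tested collagen genes of 44 rose, 11 of them called (median 1.81). In that list 1, 1 and 0 genes were above 1 RPKM in ESC replicates 1 to 3 and 11, 12 and 12 in NPC replicates 1 to 3, so the filter favoured rises. Col1a1 read 0.0384, 0.0370 and 0.0309 RPKM in ESCs and at least 19 RPKM in each NPC sample, and Col3a1 and Col6a1 followed. Axon guidance genes rose in 18 of 24 tested of 59 and fell in 2, 5 without ESC replicate 3 (median 1.55), with Efnb1, Efnb3 and Sema4c up, Sema4b down and Plxnb2 the most abundant.

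Of 47 synapse genes 11 were tested, 10 rose and 1 fell (median 1.18). Sv2a, a synaptic vesicle gene, rose from 0.110, 0.155 and 0.0882 RPKM to 9.13, 8.89 and 8.76 RPKM, with Cplx2 and Nlgn2 behind it, and the receptor gene Grin1 fell. All 10 tested clustered protocadherins of 56 rose, 9 of them called (median 1.5), and Pcdhb20, Pcdhb22 and Pcdhb17 had the largest rises, each to at most 3.64 RPKM. None of that list was above 1 RPKM in any ESC sample, so the filter set their direction. Genes of the neurite cytoskeleton gave 18 rises and 13 falls among 34 tested of 50 (median 0.58), or 24 and 8 under equal-sum scaling. Dbn1, the gene of drebrin, rose from 0.126, 0.117 and 0.0907 RPKM to 18.3, 19.6 and 19.2 RPKM, Marcks by 3.62 and Pfn2 by 3.05, and Tuba4a, Stmn2 and Tuba1c fell. Tuba4a read 47.5, 51.1 and 75.2 RPKM in ESCs and 1.59, 1.28 and 1.30 RPKM in NPCs. Of 94 potassium channel genes 6 were tested, and 4 rose and 1 fell (median 1.06), with Kcna5 first at 5.03, 4.18 and 3.90 RPKM in NPCs. Of 23 claudins 6 were tested, with 3 rises and 1 fall (median 0.57), or 6 and 1 among 7 tested under equal-sum scaling. Cldn5 and Cldn6 were called as rising and Cldn4 as falling. Of 1092 olfactory receptor genes none reached the filter, and Olfr814 was the highest at 0.459, 0.449 and 0.461 RPKM in ESCs.

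In the list of nucleolar rRNA processing and Pol I, 52 of 60 tested genes of 62 fell, 27 of them called (median −0.93). The count called was 27 without ESC replicate 3 but 10, 16 and 18 under equal-sum, median-ratio and quantile scaling. Nop2, a methyltransferase of ribosomal RNA, read 25.4, 25.5 and 24 RPKM in ESCs and 5.67, 6.29 and 6.16 RPKM in NPCs. Nhp2 and Rrp9 fell (−2.25 and −2.13), as did the abundant Npm1 and Ncl (−1.02 and −1.33), with Npm1 at −0.88 and no longer called without ESC replicate 3. Under scaling to an equal sum the list median was −0.55 beside 0.353 for all genes. Cytoplasmic ribosomal protein genes fell in 48 of 81 tested of 83, 20 of them called (median −0.81), but their count depended on single samples and on scaling. Under equal-sum, median-ratio and quantile scaling 25, 22 and 22 passed as falling and 6, 7 and 4 were called, and under the last 4 rose and the median was −0.18. Without ESC replicate 3 only 7 were called (median −0.50), although 78 passed as falling, and without ESC replicates 1 and 2 in turn 39 and 32 were called. Leaving out an NPC sample gave 9 to 11. Rpl39l, listed at 0 in all NPC samples, and Rpl10l are copies with their own expression patterns, and they fell most. Rpl41, the most abundant in NPCs, read 835, 996 and 2274 RPKM in ESCs and 610, 653 and 649 RPKM in NPCs and did not pass (−0.96).

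Mitochondrial ribosomal protein genes fell in 45 of 71 tested of 78 and rose in 1, with 20 called falls (median −0.68) that became 8 without ESC replicate 3 (median −0.47). Mrps18b, Mrps12 and Mrpl36 fell most. Subunits of oxidative phosphorylation fell in 55 of 76 tested of 83 with 28 called (median −0.82), which became 12 (median −0.57). Cox7a1, Uqcrq and Cox5a fell most, and Atp5b, the most abundant, went from 313, 320 and 368 RPKM to 148, 154 and 153 RPKM. Proteasome subunits fell in 30 of 34 tested of 39 with 11 called (median −0.80), which became 6, and Psmb3, Psmc5 and Psmb10 led. Psmb3 read 16.5, 17.3 and 32.3 RPKM in ESCs and 6.4, 6.27 and 6.27 RPKM in NPCs. Under equal-sum scaling the called falls of these 3 lists were 5, 7 and 4, and without ESC replicate 3 the genes that passed as falling were 55, 61 and 32. The 7 tested genes of the mitochondrial genome of 13 did not pass with all samples in limma, nor did any reach an unadjusted p under 0.05, and their median of −0.18 turned to 0.25, 0.03 and 0.47 under the equal-sum, median-ratio and quantile scalings. All 7 fell without ESC replicate 3 (median −0.43). mt-Co2, mt-Co3, mt-Atp6, mt-Atp8, mt-Nd3 and mt-Nd4l were listed at 0 in all samples. Aminoacyl-tRNA synthetase genes fell in 24 of 28 tested of 34 and rose in 2 (median −0.70), or 13 and 4 under equal-sum scaling, and Aars fell from 31.6, 33.0 and 29.6 RPKM to 6.12, 6.57 and 6.86 RPKM, ahead of Nars and Tars.

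RNA of many genes of amino acid metabolism was lower in NPCs. Of 22 tested genes of serine, glycine and one-carbon metabolism of 24, 19 fell, 14 of them called (median −1.41). Tdh, Cbs and Cth fell most, and Cbs read 7.51, 7.96 and 8.10 RPKM in ESCs and 0.138, 0.121 and 0.141 RPKM in NPCs. Shmt2, which makes one-carbon units in mitochondria, fell from 60.7, 64.9 and 70.3 RPKM to 23.3, 25.3 and 27.5 RPKM. In the list of amino acid response and unfolded protein response 25 of 36 tested genes of 38 fell, 14 of them called, and 4 rose, 7 without ESC replicate 3 (median −0.67), while 17 fell and 9 rose under equal-sum scaling. Asns, the asparagine synthetase gene, went from 51.2, 49.6 and 68.5 RPKM to 2.14, 2.41 and 2.85 RPKM, and Slc7a3 and Trib3 fell with it. Atf4, the gene of a factor of the amino acid response, fell from 195, 194 and 299 RPKM to 67.5, 70.0 and 77.5 RPKM. Cebpb rose, and the part of Atf4 in the other falls was not tested. Heat shock and chaperone genes fell in 21 of 26 tested of 29 and rose in 2 (median −0.79), but under equal-sum scaling 13 fell and 5 rose. Of the 29 listed, 28 were among the deposited symbols. Hspb1 fell by 5.15, Hspe1 by 1.55 and Hsp90aa1 by 2.35, from 222, 206 and 221 RPKM to 40.7, 41.8 and 42.0 RPKM, and Dnajb4 rose. Hsp90ab1, far more abundant, read 968, 998 and 993 RPKM against 735, 682 and 708 RPKM.

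Hypoxia-response genes rose in 20 of 26 tested of 28, 15 of them called, and fell in 1, Slc2a3 (median 1.48). Vegfa, the gene of the vessel growth factor, read 2.46, 2.24 and 1.57 RPKM in ESCs and 40.6, 43.3 and 45.8 RPKM in NPCs. Adm and Lox followed, and Lox was listed at 0 in all ESC samples. Glycolysis genes split into 11 rises and 6 falls among 24 tested of 26 (median 0.28), or 16 and 5 under equal-sum or quantile scaling. That median was 0.16 without ESC replicate 1 and 0.43 without ESC replicate 3. Eno2, Slc16a3 and Eno3 rose and Ldhb, Slc2a3 and Pfkp fell, whereas the abundant Aldoa did not pass (−0.09) and Gapdh fell by 0.76, or by 0.13 without passing under quantile normalization. Cholesterol synthesis genes stayed near the level of all genes, with 6 rises, 4 falls (7 and 7 without ESC replicate 3) and a median of −0.01 among 24 tested of 25 that turned to 0.31, 0.15 and 0.01 under the equal-sum, median-ratio and quantile scalings. Only Ebp was called there, as a fall (−1.53). Fatty acid genes gave 13 rises and 8 falls among 28 tested of 39 (median 0.10), or 14 and 4 under equal-sum scaling. Their median was 0.27 without ESC replicate 1 and 0.04 without ESC replicate 3. Fabp5, Fads1 and Fads2 rose, Fabp3 and Acadm fell, and called rises went from 4 to 2 without ESC replicate 3, where Fads2 rose by 0.96. Called falls of that list went from 2 to 4 without ESC replicate 1. The abundant Fasn did not pass (−0.05). Lysosome genes were even, with 14 rises and 16 falls among 38 tested of 41, and their median of −0.11 turned to 0.24 and 0.07 under equal-sum and median-ratio scaling. Their share of rises was near the 36.9% of all tested genes, of which 33.6% fell. Naglu, Smpd1 and Ctsf rose most, and Lamp1 and Grn were among the called falls.

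Solute carriers were the largest of the transport families, with 106 tested of 343, 37 rises, 38 falls and a median of 0.01 that turned negative (−0.13) under quantile normalization and without ESC replicate 3. Called solute carriers split into 12 rises and 20 falls, but into 26 and 15 under scaling to an equal sum. Of all tested genes 36.9% rose and 33.6% fell, near the shares of this family, and 16.2% and 12% were called. Slc7a3, an arginine carrier gene, fell from 35.9, 35.0 and 35.1 RPKM to 0.682, 0.776 and 0.796 RPKM, and the zinc carrier genes Slc30a2 and Slc39a4 fell by 3.30 and 3.29. The metallothionein genes Mt1 and Mt2 also fell, and a link with the zinc carriers was not tested. Slc4a3, Slc16a3 and Slc2a4 rose most.

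DNA replication and licensing genes fell in 33 of 43 tested of 46 and rose in 1, but only 9 falls were called (median −0.67), which became 2 under equal-sum (median −0.33) and 4 under median-ratio scaling. Rfc5, Uhrf1 and Mcm5 fell most, and Mcm5, part of the replicative helicase, read 33.6, 37.3 and 33.6 RPKM in ESCs and 13.1, 13.0 and 13.0 RPKM in NPCs. Mitosis genes moved less, with 18 falls and 2 rises among 43 tested of 44 (31 and 3 without ESC replicate 3, 8 and 5 under equal-sum scaling) and a median of −0.35. That median turned to 0.05 under scaling to an equal sum, where the median of all genes was 0.353. Called mitosis falls went from 5 to 2 without ESC replicate 3 and to 1 under equal-sum scaling, and called rises from 2 to 1 without it or without any NPC sample. Spc24, Ccnb1 and Birc5 fell most, Birc5 by 0.89 without ESC replicate 3, and Mki67, a marker of cycling cells, rose from 15.1, 13.9 and 5.67 RPKM to 25.1, 26.7 and 24.4 RPKM, by 1.18 with all samples and by 0.77 without ESC replicate 3. Cell cycle regulators gave 11 rises and 9 falls among 30 tested of 37 (median 0.09), shares near those of all tested genes, but 18 and 4 under equal-sum scaling. Ccnd2, the cyclin D2 gene, rose from 0.164, 0.136 and 0.0517 RPKM to 20.9, 19.5 and 20.3 RPKM, while Ccnd1 fell by 0.93. Cdkn1c and Gadd45g rose and Cdkn1a, Cdkn2a and E2f4 fell.

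Target genes of p53 fell in 10 of 18 tested of 24 and rose in 3 (median −0.39). Their median turned to 0.09 under scaling to an equal sum, where that of all genes was 0.353. Cdkn1a read 34.2, 35.2 and 35.4 RPKM in ESCs and 9.12, 10.0 and 10.7 RPKM in NPCs, Tigar and Bax fell too, and Ddit4 and Plk2 rose. Kinesin genes had 8 rises and 6 falls among 22 tested of 44, or 9 and 14 without ESC replicate 3 and 11 and 1 under equal-sum scaling, and their median of −0.08 turned to 0.33 and 0.13 under equal-sum and median-ratio scaling and was −0.35 without ESC replicate 3. Kif21b, Kif3a and Kif26a rose and Kifc2 fell. Histone cluster genes were tested in 11 of 67, with 5 rises and 5 falls, or 6 and 3 without ESC replicate 3 (median 0.27). That median was 0.61 without ESC replicate 3 and turned negative without ESC replicate 2 (−0.19), per kb of exon (−0.12) and without a filter. Hist3h2ba rose from 0.0958, 0.0967 and 0.318 RPKM to 11.0, 9.04 and 8.38 RPKM, Hist3h2a and Hist1h1c also rose, and Hist1h1a and Hist1h2bj fell, the last called no longer without ESC replicate 3. Most histone RNAs lack a polyA tail, and the libraries were polyA enriched.

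Imprinted genes rose in 19 of 25 tested of 40, 17 of them called, and fell in 3 (median 2.51). Of the 40 listed, 32 were among the deposited symbols. Igf2, Peg10 and Dlk1 led, Peg3 and Nnat rose to a similar extent, and Nnat reached about 100 RPKM in NPCs. Phlda2, a brake on placental growth, was the only called fall. Genes of DNA methylation and demethylation gave 6 rises and 7 falls among 18 tested of 20, with a median of −0.09 that turned to 0.33 and 0.10 under equal-sum and median-ratio scaling and was −0.30 without ESC replicate 3. The methyltransferase genes traded places. Dnmt3a rose from 0.172, 0.187 and 0.117 RPKM to 5.45, 5.32 and 5.02 RPKM, and Dnmt3b fell from 4.03, 4.35 and 2.78 RPKM to 0.537, 0.557 and 0.578 RPKM, with Dnmt3l nearly gone. Likewise Tet3 rose, from at most 0.0601 RPKM to 2.16, 2.16 and 2.12 RPKM, while Tet1 fell from 7.22, 7.00 and 2.02 RPKM to 1.44, 1.25 and 1.36 RPKM. Zfp57, which guards imprints, fell from 45.2, 42.6 and 33.8 RPKM to 12, 13.2 and 13.1 RPKM.

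Polycomb and histone methylation genes rose in 17 of 44 tested of 50, a share near the 36.9% of all tested genes, and fell in 9, 15 without ESC replicate 3 (median 0.25, or 0.03 without ESC replicate 3). Cbx2 and Cbx7, alternative subunits of Polycomb complex 1, moved apart, Cbx2 from 4.56, 4.82 and 3.49 RPKM to 17.3, 17.7 and 16.7 RPKM and Cbx7 from 5.85, 6.18 and 3.46 RPKM to 0.165, 0.165 and 0.164 RPKM. Kdm6b and Suv39h1 rose, and Eed and the ESC cofactor Epop fell, Epop by 3.31. BAF complex genes rose in 11 of 20 tested of 28 and fell in 2, 5 without ESC replicate 3 (median 0.40), with Smarcc2, Bcl7a and Smarce1 up and Actl6a, a subunit of the ESC form, down by 1.22. Neuronal and splicing RNA-binding protein genes had 6 rises and 3 falls among 23 tested of 44, or 7 and 9 without ESC replicate 3, and their median, within 0.01 of 0, was 0.36, 0.20 and 0.28 under equal-sum, median-ratio and quantile scaling. Msi1, a marker of neural progenitors, rose from 1.94, 2.02 and 1.61 RPKM to 5.97, 7.24 and 7.64 RPKM, with Ptbp2 and Igf2bp2, and Lin28a fell by 2.28. Genes of the interferon response and MHC class I fell in 9 of 14 tested of 37 and rose in 4 (median −0.82). Of the 37 listed, 35 were among the deposited symbols. Ifitm1, Ifitm3 and Xaf1 fell, and H2-K1 rose from 1.27, 1.19 and 1.92 RPKM to 10.2, 12.2 and 13.1 RPKM with Gbp2.

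SOX factors rose in 9 of 13 tested of 19 and fell in 3 (median 1.83). Sox11 read 0.707, 0.689 and 0.532 RPKM in ESCs and 49.5, 51.6 and 54.5 RPKM in NPCs, Sox4 and Sox9 rose behind it, and Sox2 and Sox15 were the called falls. Sox12 rose as well, to 49.1, 49.2 and 45.7 RPKM, so that Sox4, Sox11 and Sox12 of one subgroup all rose. FOX factors rose in 13 of 19 tested of 44 and fell in 3 (median 1.21), with Foxf1, Foxc2 and Foxd2 up and Foxh1, the Nodal cofactor, down from 37.6, 41.6 and 33.4 RPKM to 0.678, 0.595 and 0.577 RPKM. The Zfp zinc finger genes, 222 tested of 391, had 113 rises and 52 falls (median 0.33), or 143 and 34 under equal-sum scaling. Zfp703, Zfp503 and Zfp629 rose most and Zfp42, Zfp296 and Zfp979 fell most.

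Of the 83 symbol stems with at least 10 tested genes, Hoxb (median 2.72), Sox (1.83), Col (1.81), Dusp (1.03) and Bcl (0.81) stood highest, and Klf (−1.30), Cox (−1.13), Ndufb (−0.84), Rpl (−0.80) and Rps (−0.80) lowest. Without ESC replicate 3, Rpl and Rps were at −0.50 and −0.46, above Utp (−0.80) and Psmd (−0.64), and under quantile normalization they were at −0.17 and −0.16. Genes named by number only were mostly below the filter. Of 1477 Gm-numbered genes 70 were tested, with 20 rises and 33 falls (median −0.48). Gm266, Gm1673 and Gm14226 rose most, Gm21060, Gm20939 and Gm10772 fell most, and called rises went from 8 to 5 without NPC replicate 2 and to 15 under equal-sum scaling. Of 626 Rik clone genes 120 were tested, with 44 rises and 47 falls (65 and 28 under equal-sum scaling), and their median of −0.11 turned to 0.35 and 0.13 under equal-sum and median-ratio scaling. Their share of rises was near the 36.9% of all tested genes, of which 33.6% fell. 5730596B20Rik was listed at 0 in all ESC samples and near 9 RPKM in all NPC samples, and 2300002M23Rik read at least 12 RPKM in all ESC samples and was listed at 0 in all NPC samples. The single snoRNA host gene listed, Snhg11, rose by 0.72. The 18 reference genes common in normalization gave 2 rises and 7 falls, or 4 and 12 without ESC replicate 3, and their median of −0.28 turned to 0.14 and 0.04 under equal-sum and quantile scaling, with Hprt, Rplp0 and Ppia called as falling, Rplp0 not without ESC replicate 3 (−0.86). Hprt read 4.91, 4.78 and 6.10 RPKM in ESCs and 1.13, 1.21 and 1.22 RPKM in NPCs.

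By chromosome, called rises were most frequent on the X chromosome, with 57 of 250 tested genes (22.8%) beside 16.2% of all genes, and among the autosomes least frequent on chromosome 8 (12.5%). Among the autosomes called falls were most frequent on chromosome 17 (15.8%) and least on chromosome 12 (7.38%), beside 12% of all genes. Protein-coding genes made up 7899 of the tested genes, and 7 of 31 tested pseudogenes were called as falling.

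**Figure D4:**
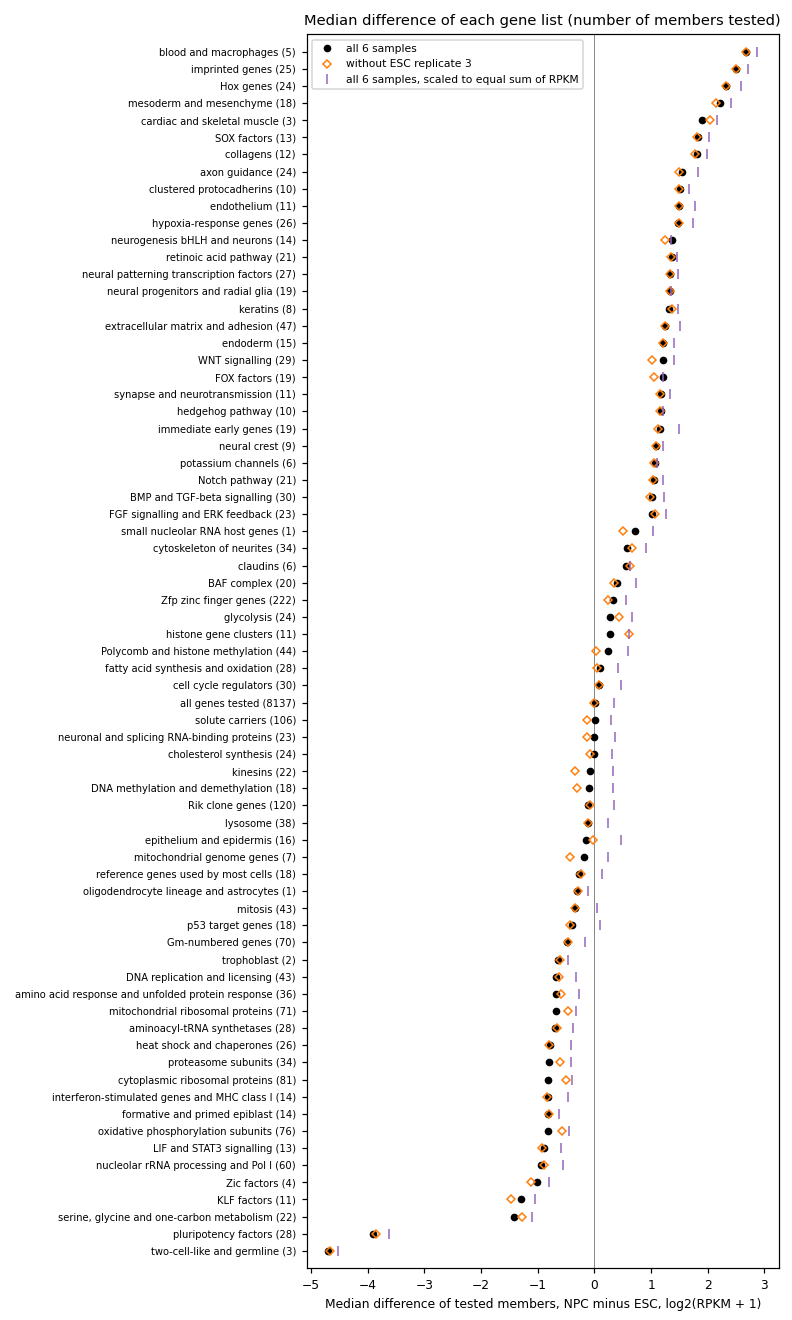
Median difference of tested members in each list of genes, with all samples, without ESC replicate 3 and after scaling to an equal sum of RPKM. That scaling shifted the median of all genes to 0.353 and turned the sign for epithelium, DNA methylation, kinesins, lysosome, mitosis, p53 targets, cholesterol synthesis, RNA-binding proteins, reference genes, Rik clones and the mitochondrial genome.

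The values were also restated per kb of exon, an analysis added after the data were seen. These values hold only as far as the counted reads lie in exons, which was not tested here. On that scale 12131 genes were above the filter, with 3276 called rises and 1724 called falls. Of the 1322 and 976 genes called on the deposited scale, 1308 and 968 were called again. Genes gained by it were long, with a median span of 57.4 kb against 16.3 kb for those tested on the deposited scale. Among them were neural progenitor genes with long introns. Cdh2, the N-cadherin gene, went from a mean of 0.23 per exon kb in ESCs to 20.6 in NPCs, opposite to Cdh1, and Gli3 went from 1.20 to 23.9, Dach1 from 0.01 to 8.84 and Rarb from 0.00 to 17.3. Pax6 went from 0.03 to 3.77 and Nes from 5.05 to 44.7. On that scale 21 of 27 tested neural progenitor markers were called as rising and 2 as falling. Their sum rose from 282, 283 and 279 in ESCs to 359, 370 and 385 in NPCs. Of 28 retinoic acid genes tested per kb of exon, 27 rose and 1 fell. Mesoderm markers were called as rising in 22 of 26 and as falling in 1, and T was the most abundant of them in ESCs. In NPCs Wt1 stood at a mean of 59.6 and Foxf1 at 41.6. The mesoderm list summed to 375, 406 and 390 in NPCs against 12.4, 13.0 and 12.2 in ESCs. Cdh2, Gli3 and Dach1 were picked by rule as listed markers.

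Called genes with the largest spread between replicates were set apart by ESC replicate 3. Alg10b read 8.41, 8.66 and 1.89 RPKM in ESCs and 18.3, 15.0 and 16.2 RPKM in NPCs, and its rise was 1.44 with that replicate and 0.87 without it. Srrm2, a long splicing gene, read 37.4, 36.9 and 13.1 RPKM in ESCs and 53, 59.1 and 57.2 RPKM in NPCs (1.07, or 0.59 without). Nktr, Dvl3 and Hspg2 were likewise low in ESC replicate 3 and rose by 0.81, 0.66 and 0.69 without it. Short genes leaned the other way, and 2010107E04Rik at 17, 17.1 and 46.5 RPKM in ESCs and 11.5, 11.0 and 10.6 RPKM in NPCs fell by 1.05 with it and by 0.59 without it. Ccdc124 and Rplp1 stayed called without it (−1.12 and −1.45). Akap12 and Tet1 were low in ESC replicate 3 and fell further without it (−1.58 and −1.79), but each lost its call without ESC replicate 1 or 2. Small counts of other lists moved as well. Without ESC replicate 3 mesoderm, trophoblast, Notch, hypoxia-response and potassium channel genes had 2 falls each and keratins 1. Rises numbered 3 in DNA replication, 5 in mitochondrial ribosomal proteins, 4 in oxidative phosphorylation and 1 each in rRNA processing, one-carbon metabolism and proteasome genes.

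Across the transcriptome, RNA of all tested pluripotency factors fell, with 7 of 30 still above 1 RPKM in every NPC sample, and most tested Hox, retinoic acid, imprinted, matrix and hypoxia-response genes rose. Of 19 tested neural progenitor genes 14 rose, among them Pax6, Nes and Sox9, while Sox2 fell and Vim, Hes1 and Notch1 did not pass. Foxf1, Twist1, Tcf21 and other mesodermal genes rose as well, as did embryonic globins. Lists of rRNA processing, one-carbon metabolism and amino acid response genes kept a negative median under every scaling, although called falls in the list of rRNA processing went from 27 to 10 under the equal-sum scaling. With 3 replicates per cell type from separately deposited tables, the balance of rises and falls rests on the scaling, the filter and ESC replicate 3. Called rises outnumbered called falls under every scaling, but not with the stricter filters.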

How the data were processed

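The RPKM values were used as deposited by the authors, in a table for each cell type. Columns were matched to samples by name, lines that share a symbol (153 symbols) were summed, and the tables were joined by symbol. According to the methods of the study, reads were checked and filtered with FastQC, SortMeRNA and Trimmomatic and aligned with STAR. The methods also state that the RPKM came from coverage of exons, by a custom pipeline. The submitters' notes name Bowtie2 2.3.4.3, Subread 1.4.6-p4 and deepTools 3.2.1. The methods name a stranded library kit, but not how strand entered the counting or which gene annotation was used for the RPKM.

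Whole reads could be recovered from the values of 10418 genes with known lengths. In 92.7% of them the length used matched the gene span within 2%, and in 1.35% the exon length. Depth recovered from the same step was 34.0, 33.7 and 30.8 M reads in ESC replicates 1 to 3 and 30.1, 27.3 and 32.3 M reads in NPC replicates 1 to 3, so that 1 read equals 0.00158 to 0.00198 RPKM for the median gene.

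Differences were tested with limma 3.58.1 in R 4.3.3 (linear model and moderated t with a trend) on log2(RPKM + 1), for genes with a mean above 1 RPKM in either cell type, with Benjamini-Hochberg adjustment over 8137 genes. Tables were handled in Python 3.11.15. The fit was tested on simulated data. Genes were named by rule: the 20 largest rises and falls, the 10 most abundant genes of each cell type, the leading genes of each list, the leading genes near 0 in the other cell type, markers, the steadiest abundant genes and the called genes with the largest replicate spread. The genes and lists were chosen with earlier results of these data known. Promoters come from RefSeq on GRCm38.p6. Some genes that the rule picks are not reported here.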

Additional observations from a re-analysis of the deposited data

How the results depend on the processing

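The median difference of pluripotency genes stayed negative and that of Hox genes positive under all 19 alternatives, although Hoxc12 and Hoxc13 fell. Of 317 named genes that were tested, 282 kept their direction and their side of the threshold in each alternative. The counts were less stable than the genes. Beside 3001 genes that passed and rose, 2737 that passed and fell, 1322 called rises and 976 called falls, a pseudocount of 0.1 gave 1989 called rises. Without a filter 18360 genes were tested, of which 7247 rose and 4208 fell, with 1319 and 972 called. A filter at a mean over 5 RPKM in either cell type gave 907 rises and 1494 falls with 574 and 690 called, and a mean over 1 RPKM in both cell types gave 1344 rises and 1943 falls with 424 and 603 called, so each turned the balance of called genes. Scaling to an equal sum of RPKM left 1647 falls and 540 called falls. A difference of at least 2 was met by 380 rises and 211 falls. Per exon length, an alternative chosen after seeing the data, 5228 genes rose, 3276 of them called, and 1724 falls were called. Averaging lines with 1 symbol, also chosen then, gave 1318 and 971 called genes.

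With a replicate block that pairs samples by replicate number, 2868 genes rose and 2584 fell, with 1322 and 977 called. Residuals of samples with the same number correlated at 0.112, −0.081 and 0.032, so the replicates were treated as unpaired.

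Leaving out 1 sample at a time gave 2614 to 3552 rises and 2192 to 3649 falls, with 1244 to 1379 and 865 to 1086 called. Thresholds of 0.5 and 2 RPKM kept more symbols above them in NPCs than in ESCs, while the higher thresholds given above kept fewer.

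Named genes that turned direction had small differences and did not pass, except Hsp90ab1, which was −0.48 and became 0.28 under quantile normalization. Quantile normalization also turned Aldoa (0.56), Eef1a1 (0.48), Eef2 (0.65) and Srsf1 (0.58), and an equal sum of RPKM turned Aldoa (0.34) and Hes1 (0.34). Leaving out 1 sample at a time moved mt-Nd4 between −0.29 and 0.21 and mt-Nd5 between −0.32 and 0.69, and each fell without ESC replicate 3. Of 70 lists with a median, 43 kept its sign in every alternative. Each of the stricter filters turned the medians of neural crest, neurite cytoskeleton and solute carrier genes. A mean over 5 RPKM in either cell type also turned those of BMP and TGF-beta, cholesterol, fatty acid, epithelial and epiblast genes. A mean over 1 RPKM in both cell types also turned those of SOX, blood, cell cycle, neural patterning and neurogenesis genes. Vim, which did not pass, rose by 0.62 under scaling to an equal sum and by 0.32 without ESC replicate 3.

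Tet1, Mki67, Alg10b, Srrm2 and other genes in which ESC replicate 3 stood apart lost their call when any NPC sample was left out. The limits of these data are 3 replicates per cell type from 1 cell line and separate tables for each cell type. Another limit is a length step over the whole gene span that hides genes with long introns below the filter. The last is 1 ESC sample whose values depend on exon length. Protein levels and single cells were not analysed here.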
